A study of Mus musculus with 6 samples.

Results

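A set of 47 autophagy, lysosome and TFEB target genes was followed in splenic T cells of mice. The mice were given rapamycin or saline after bone marrow transplantation. The genes were taken from a list of names whose rule used no measured values, although the list was drawn up with earlier results of these data known. Each was represented by the array probe set that names only that gene and had the highest mean over all 6 mice. All 47 were measured, out of 19938 genes on the array that could be named in this way. They fall into 3 transcription factors of the MiT family (Tfeb, Tfe3 and Mitf), 23 genes of the autophagy machinery, 7 of the lysosomal proton pump, 9 lysosomal enzymes, and 5 lysosomal membrane proteins and activators. Of the 47, 44 lay in the upper 50% of genes by mean level, and Mitf, Atg14 and Wipi1 lay below it.

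The rapamycin group was 3 B6D2F1/J mice given 1.5 mg/kg rapamycin, an inhibitor of the kinase complex mTORC1, by intraperitoneal injection every other day until day 10. The control group was 3 B6D2F1/J mice given phosphate-buffered saline (PBS) on the same schedule. All 6 had been lethally irradiated and rebuilt with bone marrow of B6 mice, a parental strain of this F1 hybrid, from which T cells had been removed. The protocol allows for B6 spleen cells in the graft and does not say which mice received them, so donor and residual host T cells cannot be told apart here. Spleen cells were stained for CD3 on day 10, CD3-positive cells were sorted, and the RNA of each mouse was read on 1 whole-transcript array. Age and sex of the mice are not given in the labels used here. Levels are log2 values after robust multi-array averaging (RMA), and every difference is rapamycin minus PBS on that scale, so 1 unit is a change by a factor of 2.

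Autophagy encloses cytoplasm in a double membrane and delivers it to the lysosome, where acid hydrolases break it down. When nutrients are plentiful mTORC1 phosphorylates ULK1 and ATG13, which holds back autophagosome formation, and it phosphorylates TFEB and TFE3, which keeps these factors in the cytoplasm. When mTORC1 is inhibited the factors can enter the nucleus and bind the CLEAR element of lysosomal and autophagy genes. T cells use autophagy to remove organelles as they leave quiescence and to persist as memory cells. The comparison asked whether the transcripts of this system differ in T cells of rapamycin-treated recipients.

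Promoters of the set were read first, because the CLEAR element is the link between the MiT factors and the other members. RefSeq promoters of mouse build GRCm38.p6, each 250 bases before to 50 bases after a gene's start, matched 37 of the 47 genes. The inner 8 bases of the element, TCACGTGA, are the same on both strands and contain the shorter core CACGTG, which other E-box factors such as MYC and USF also bind. The 8 bases were present in promoters of 7 of the 37 genes (18.9%), against 304 of 27025 genes (1.12%) in the whole promoter table. The core was present in 12 of the 37 (32.4%), against 2187 of 27025 genes (8.09%). The set was gathered in part as TFEB target genes, so a high share of such matches can follow from how the list was made. These shares describe the list and are not a result of the arrays. By class the 8 bases were found in 2 of 4 proton pump genes, 3 of 8 lysosomal enzymes, 1 of 4 lysosomal membrane genes, 1 of 18 autophagy machinery genes and 0 of 3 MiT factors. A match is a stretch of letters and does not show that a factor binds there.

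The stretches around the matches are shown for the 7 genes with the 8 bases and for Lamp1, whose promoter holds the core 4 times without the 8 bases. Each runs 5′ to 3′ on the gene's strand, and capitals mark the 8 bases or, where only these match, the core. They lie at chr2:164833741-164833792 (plus strand) for Ctsa, chr7:142387900-142388077 (minus strand) for Ctsd, chrX:134601174-134601252 (minus strand) for Gla, chr8:3500428-3500499 (plus strand) for Mcoln1, chr8:105566045-105566087 (minus strand) for Atp6v0d1, chr16:44139365-44139410 (minus strand) for Atp6v1a, chr16:45158715-45158783 (plus strand) for Atg3 and chr8:13159080-13159171 (plus strand) for Lamp1.
Ctsa: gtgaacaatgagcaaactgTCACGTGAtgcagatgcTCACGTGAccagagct
Ctsd: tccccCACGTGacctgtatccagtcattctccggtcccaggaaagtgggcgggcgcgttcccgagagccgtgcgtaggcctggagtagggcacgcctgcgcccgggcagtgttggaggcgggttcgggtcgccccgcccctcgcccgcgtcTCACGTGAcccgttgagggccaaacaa
Gla: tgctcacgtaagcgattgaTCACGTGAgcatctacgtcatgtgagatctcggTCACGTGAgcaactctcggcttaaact
Mcoln1: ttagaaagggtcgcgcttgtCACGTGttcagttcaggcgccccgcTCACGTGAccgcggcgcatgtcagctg
Atp6v0d1: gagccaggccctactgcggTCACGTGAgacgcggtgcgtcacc
Atp6v1a: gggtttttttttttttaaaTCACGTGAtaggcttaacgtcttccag
Atg3: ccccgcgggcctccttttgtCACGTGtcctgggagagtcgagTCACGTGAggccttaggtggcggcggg
Lamp1: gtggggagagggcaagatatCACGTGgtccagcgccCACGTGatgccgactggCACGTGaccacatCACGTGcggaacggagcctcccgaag

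The cells carried the T cell markers of their sort, and they also carried markers of other cells. Cd3e, a chain of the T cell receptor complex, averaged 12.84 ± 0.08 in the rapamycin mice and 12.87 ± 0.05 in the PBS mice (SD, n = 3 each). The mean of 15 neutrophil and granulocyte precursor markers was 9.76, 8.64 and 9.17 in the rapamycin mice, against 9.33, 8.99 and 8.08 in the PBS mice. The mean of 14 measured monocyte and macrophage markers was 7.90, 7.89 and 8.45 in the rapamycin mice, against 8.56, 8.26 and 8.20 in the PBS mice. The mean of 9 measured T cell markers was 11.19, 11.34 and 11.20 in the rapamycin mice, against 11.19, 11.26 and 11.38 in the PBS mice. The means of all 3 lists overlapped between the groups, and phagocytes are rich in lysosomes. Of the 15 neutrophil and precursor markers 14 were higher with rapamycin (median difference 0.45), against 44.7% of all genes. Higher were 5 of the 14 monocyte and macrophage markers (median -0.16) and 2 of the 9 T cell markers (median -0.03). In other lists, 4 of 7 B cell, 1 of 7 dendritic cell and 3 of 4 erythroid markers were higher. Most markers of each of these lists lay in the lower 50% of genes by mean level, so their directions say little about such cells. No marker had an adjusted p under 0.05 in limma's test over all genes. In bulk RNA, fewer cells of a type and less RNA per cell cannot be told apart.

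Rapamycin replicate 1 stood apart from the other 5 mice in this gene set. It had the lowest level of the 6 mice in 32 of the 47 genes (68.1%), against 4577 of 19938 genes and 34.7% of the upper 50% of genes by mean level. Rapamycin replicate 3 had the highest level in 19 of the 47 (40.4%), against 11.9% of all genes. The mean of the 47 log2 levels was 8.71, 8.90 and 8.95 in the rapamycin mice, against 8.87, 8.79 and 8.87 in the PBS mice, so the rapamycin group held both the lowest and the 2 highest means. Rapamycin replicate 1 also had the highest neutrophil marker mean, and the part of other cells in its low levels was not tested. Counts of the set and its classes are therefore given with and without it.

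**Figure D1:**
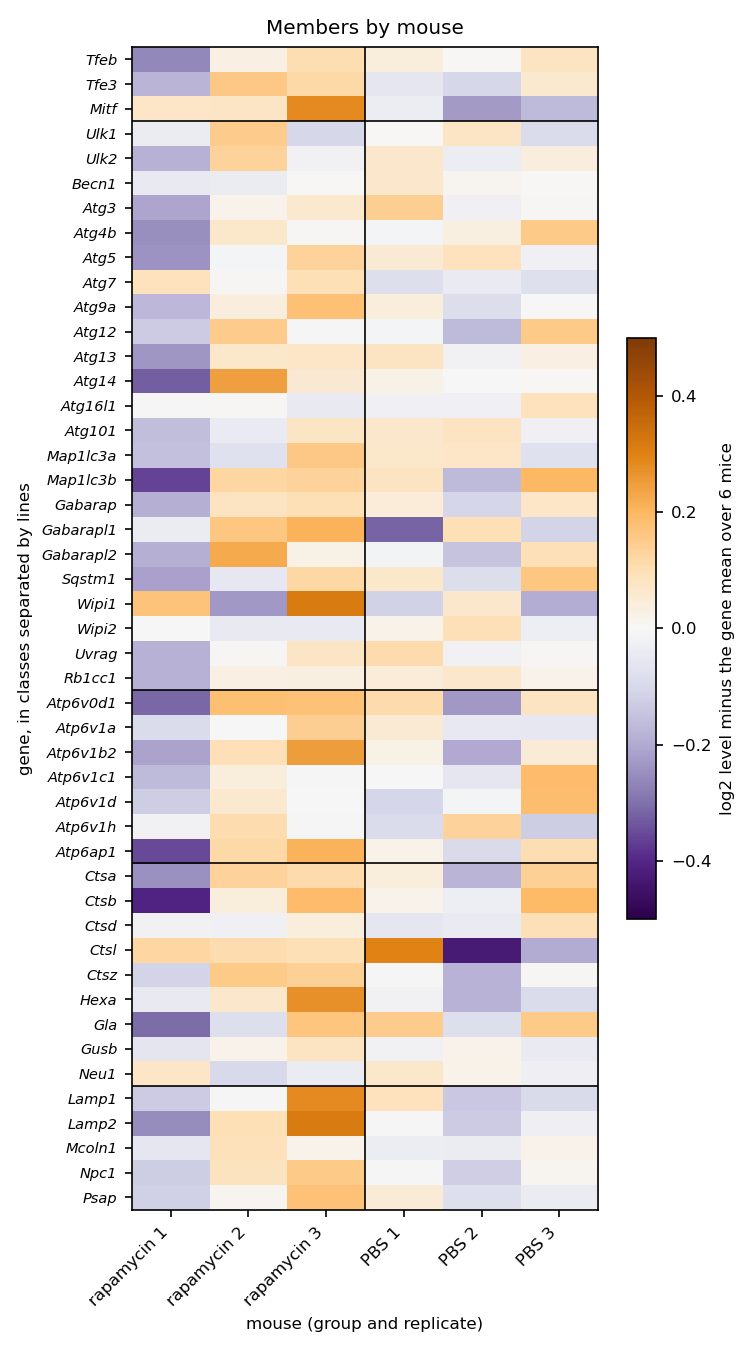
Level of each of the 47 genes in each mouse, as the log2 level minus the gene's mean over the 6 mice (colour), with the 3 rapamycin mice left of the 3 PBS mice and horizontal lines between the 5 classes. Rapamycin replicate 1 is the lowest mouse in 32 of the 47 genes.

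None of the 47 genes passed the test between rapamycin and PBS, and most differences were small. In limma's moderated test over 19938 genes, 0 of the 47 had an adjusted p under 0.05, against 1 gene (0.00502%) of all genes. At an unadjusted p under 0.05 there was 1 of the 47 (2.13%), Mitf, against 932 genes (4.67%). A higher level in rapamycin mice was measured for 23 genes and a lower level for 24, with a median difference of -0.0033, where the median of all genes was -0.01 and 44.7% lay higher. All 47 differences lay between -0.15 and 0.29, and 44 of them (93.6%) were within 0.2 of no difference, against 91.1% of all genes. For the 46 genes other than Mitf the adjusted p was 0.9998 by limma. The 95% intervals of the 47 differences reached no further than 0.60 from zero, which is a 1.51-fold change, so larger changes of any of these transcripts lie outside their intervals.

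**Figure D2:**
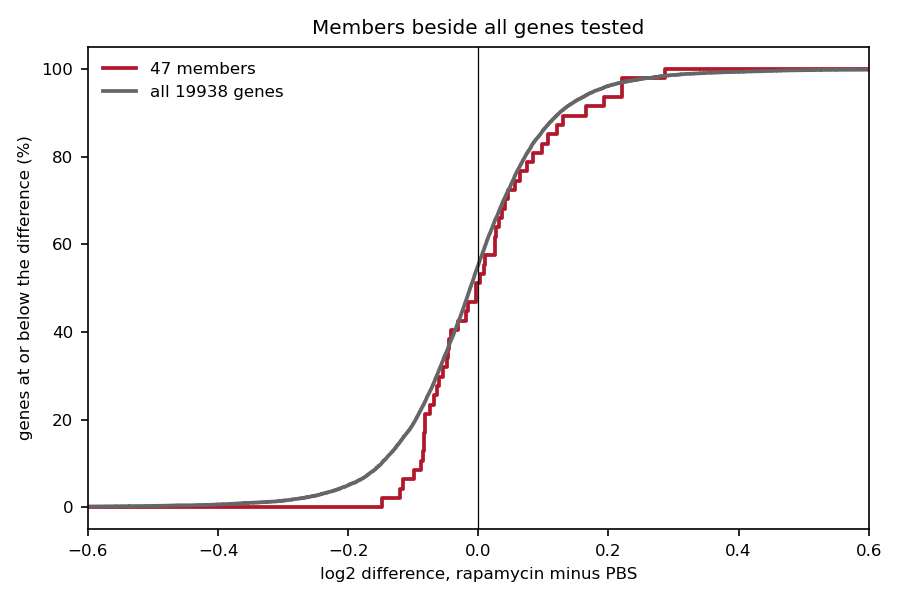
Share of genes (%, y axis) at or below each log2 difference, rapamycin minus PBS (x axis), for the 47 genes and for all 19938 genes tested. The medians were -0.0033 and -0.01, and the 47 genes ended at -0.15 and 0.29.

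Without rapamycin replicate 1 the balance of directions moved. That mouse was singled out for its low levels in these same genes, so a rise without it follows from that choice. With it left out, 36 of the 47 genes were higher with rapamycin and 11 lower, with a median of 0.08. Over all genes 44.9% were higher and the median was -0.01. Of the upper 50% of genes by mean level, 52.3% were higher under the same omission. Still 0 of the 47 passed, and 4 (8.51%) had an unadjusted p under 0.05, against 7.75% of all genes. Leaving out rapamycin replicate 3 moved the count the other way, to 14 higher and 33 lower. Over the 6 omissions of a single mouse, the number of genes with a higher level in rapamycin mice ranged from 14 to 36.

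Groups did not overlap for 2 of the 47 genes, Mitf and Atg7, with every rapamycin mouse above every PBS mouse. Over all genes this was so for 626 (3.14%). The opposite separation, with all 3 rapamycin mice lower, was seen for 0 of the 47, against 1252 genes (6.28%). Without rapamycin replicate 1, which leaves fewer mice to separate, 14 of the 47 lay wholly above the PBS mice, against 9.89% of all genes and 13.6% of the upper 50% by mean level. Under the same omission 2 of the 47 lay wholly below, against 14.2% of all genes and 13.6% of the upper 50%. With any other single mouse left out, 2 to 4 of the 47 lay wholly above and 0 to 3 wholly below. Of all 19938 genes, 1141 to 1827 lay wholly above and 2049 to 2645 wholly below under those omissions.

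**Figure D3:**
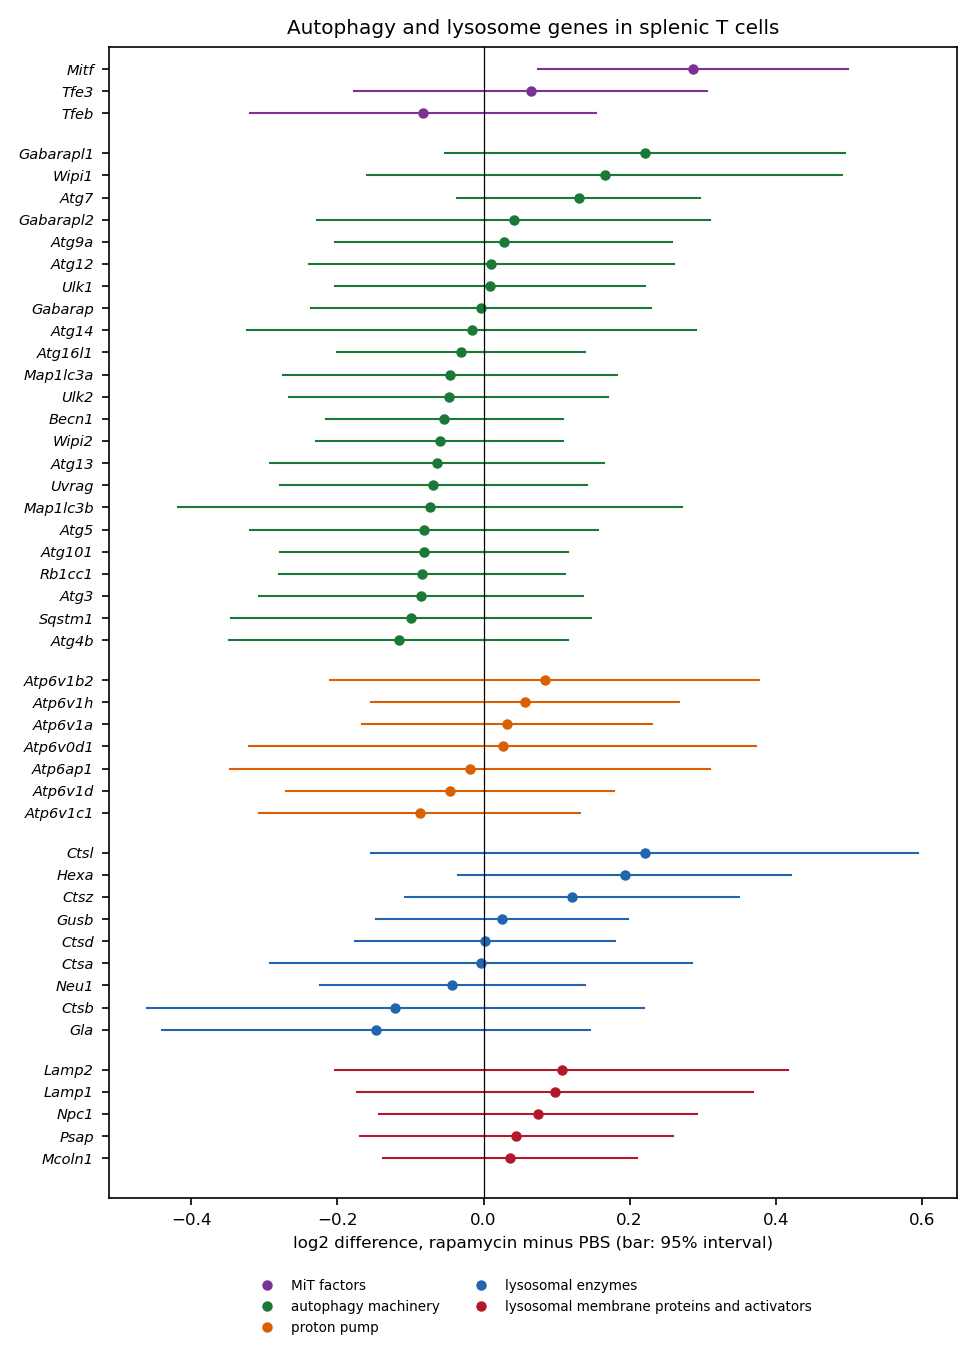
Log2 difference, rapamycin minus PBS (x axis), of each of the 47 genes, with points for the difference, bars for its 95% interval and colours for the 5 classes (n = 3 mice a group). Mitf is the only gene whose interval, 0.07 to 0.50, leaves out zero, and its adjusted p was 0.982 in limma's test.

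Among the MiT factors, Mitf had the largest difference and the main lysosomal regulators Tfeb and Tfe3 had small ones. Mitf, best known as the regulator of pigment cells, mast cells and osteoclasts, measured 6.30, 6.30 and 6.51 in the rapamycin mice, against 6.19, 5.99 and 6.06 in the PBS mice. The difference was 0.29 (SE 0.09, 1.22-fold, adjusted p = 0.982 by limma), and the groups did not overlap. It was positive in all 11 alternatives that gave a value, between 0.14 and 0.34, with adjusted p of 0.554 to 0.99998 by limma. The lowest of these differences came from averaging its 2 probe sets, of which the other measured 2.70, 2.49 and 2.58 in the rapamycin mice, against 2.69, 2.56 and 2.55 in the PBS mice, with a difference of -0.01.

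Tfeb, whose product drives the CLEAR network when mTORC1 is low, measured 7.99, 8.28 and 8.36 in the rapamycin mice, against 8.30, 8.26 and 8.33 in the PBS mice. Its difference of -0.08 (SE 0.10, adjusted p = 0.9998 in limma's test) rested on rapamycin replicate 1, and was 0.03 without that mouse. Tfe3, a close relative with shared targets, measured 8.21, 8.55 and 8.51 in the rapamycin mice, against 8.34, 8.29 and 8.45 in the PBS mice, a difference of 0.06. Rapamycin replicate 1 was again the lowest mouse for both, and the groups overlapped. Of the 3 factors 2 were higher with rapamycin, with a median of 0.06, and all 3 were without rapamycin replicate 1, with a median of 0.17.

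The autophagy machinery had more genes lower than higher with rapamycin, by small amounts. Of 23 genes 16 were lower and 7 higher, with a median of -0.05 and a range from -0.12 to 0.22, and 0 had an unadjusted p under 0.05. Higher were 30.4% of the class, against 44.7% of all genes. Without rapamycin replicate 1 the count was 15 higher and 8 lower, with a median of 0.03. With any other single mouse left out, 4 to 9 were higher and 14 to 19 lower. Without rapamycin replicate 3 the count was 6 higher and 17 lower, with a median of -0.05.

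The kinase complex that starts autophagy is made of ULK1 or ULK2, ATG13, ATG101 and FIP200, the product of Rb1cc1. Ulk1, a direct mTORC1 substrate, measured 8.11, 8.30 and 8.05 in the rapamycin mice, against 8.15, 8.23 and 8.06 in the PBS mice. It averaged 8.15 ± 0.13 in the rapamycin mice and 8.14 ± 0.08 in the PBS mice (SD, n = 3 each), and the 95% interval of the difference ran from -0.20 to 0.22. Rb1cc1 measured 7.78, 7.99 and 7.99 in the rapamycin mice, against 8.01, 8.03 and 7.98 in the PBS mice, so that rapamycin replicate 1 alone was low and the difference was -0.08 (SE 0.09). Atg101 measured 7.51, 7.63 and 7.74 in the rapamycin mice, against 7.73, 7.75 and 7.65 in the PBS mice, also a difference of -0.08 (SE 0.09), with overlapping groups. Ulk2 differed by -0.05 and Atg13 by -0.06. Of the vesicles and lipid kinase complex that act next, Atg9a, which encodes a membrane-spanning scramblase, differed by 0.03, Becn1 by -0.05, Uvrag by -0.07 and Atg14 by -0.02. Becn1, the core of the class III phosphatidylinositol 3-kinase complex, varied least of these, at 8.998 ± 0.026 in the rapamycin mice and 9.052 ± 0.034 in the PBS mice. Atg14 varied most, at 5.49, 6.06 and 5.87 in the rapamycin mice, against 5.84, 5.82 and 5.82 in the PBS mice.

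WIPI proteins read the lipid made by that kinase and bring the conjugation machinery to the membrane. Wipi1 measured 6.31, 5.90 and 6.45 in the rapamycin mice, against 6.02, 6.20 and 5.94 in the PBS mice, and its difference of 0.17 (SE 0.14) rested on rapamycin replicates 1 and 3, since rapamycin replicate 2 was the lowest of all 6 mice. Wipi2, the family member that recruits ATG16L1, differed by -0.06. Atg7 encodes the E1-like enzyme that activates ATG12 and the LC3 family. It measured 9.11, 9.02 and 9.12 in the rapamycin mice, against 8.94, 8.98 and 8.94 in the PBS mice. The difference of 0.13 (SE 0.07, 1.09-fold) came from groups that did not overlap, and it did not pass the test (adjusted p = 0.9998 by limma). It lay between 0.11 and 0.16 in all 12 alternatives.

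The partners of ATG7 had differences nearer to zero or below it. The E2-like Atg3 differed by -0.09, the ubiquitin-like Atg12 by 0.01, its acceptor Atg5 by -0.08, and Atg16l1, which places the complex on membranes, by -0.03. Atg4b, the protease that primes and removes LC3 family proteins, measured 8.04, 8.35 and 8.29 in the rapamycin mice, against 8.28, 8.32 and 8.44 in the PBS mice. Its difference of -0.12 (SE 0.10) was the lowest of the machinery, and the groups overlapped.

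The LC3 and GABARAP proteins are the lipid-linked tags of the autophagosome. Map1lc3b measured 9.52, 10.00 and 10.01 in the rapamycin mice, against 9.96, 9.71 and 10.07 in the PBS mice. The low values were rapamycin replicate 1 and PBS replicate 2, and the difference was -0.07 (SE 0.15). A second probe set of Map1lc3b gave -0.09. Gabarap measured 11.87, 12.14 and 12.16 in the rapamycin mice, against 12.11, 11.95 and 12.13 in the PBS mice, with the same 2 mice low and means of 12.06 in both groups. Map1lc3a differed by -0.05 and Gabarapl2 by 0.04, where the other probe set of Gabarapl2 gave -0.04.

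Gabarapl1 had the largest difference of the machinery. It measured 7.09, 7.29 and 7.33 in the rapamycin mice, against 6.81, 7.23 and 7.01 in the PBS mice, a difference of 0.22 (SE 0.12, 1.17-fold). Rapamycin replicate 1 lay below PBS replicate 2, so the groups overlapped. Sqstm1, encoding the cargo receptor p62 that is itself consumed by autophagy, measured 9.40, 9.56 and 9.73 in the rapamycin mice, against 9.68, 9.53 and 9.78 in the PBS mice. Its difference was -0.10 (SE 0.11), with a 95% interval from -0.35 to 0.15.

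The proton pump genes lay on both sides of zero. The V-ATPase acidifies the lysosome, and its V1 part burns ATP to turn the membrane-bound V0 part. Of 7 genes 4 were higher and 3 lower with rapamycin, with a median of 0.03 and a range from -0.09 to 0.08. Without rapamycin replicate 1, 6 were higher with a median of 0.09, and without rapamycin replicate 3, 1 was, with a median of -0.05. Rapamycin replicate 1 was the lowest mouse for all but Atp6v1h.

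Atp6v1b2, the widely expressed B subunit of the V1 ring, measured 10.12, 10.43 and 10.58 in the rapamycin mice, against 10.36, 10.13 and 10.38 in the PBS mice, a difference of 0.08 (SE 0.13). Its catalytic partner Atp6v1a measured 9.42, 9.51 and 9.66 in the rapamycin mice, against 9.57, 9.47 and 9.46 in the PBS mice, a difference of 0.03 (SE 0.09). In both genes rapamycin replicate 1 was the lowest mouse and rapamycin replicate 3 the highest. Atp6v0d1, which joins V1 to V0, measured 8.915, 9.408 and 9.401 in the rapamycin mice, against 9.339, 8.997 and 9.309 in the PBS mice. Its difference was 0.03, while the spread of the rapamycin mice was 0.28 (SD). Atp6ap1, an accessory subunit needed for pump assembly, had the same shape, with 9.96, 10.43 and 10.52 in the rapamycin mice, against 10.33, 10.22 and 10.42 in the PBS mice. Its difference was -0.02 (SE 0.14). Atp6v1c1, on the stalk that regulates assembly, measured 8.789, 8.997 and 8.949 in the rapamycin mice, against 8.955, 8.897 and 9.144 in the PBS mice, a difference of -0.09 (SE 0.10). Atp6v1d of the central rotor measured 8.878, 9.064 and 9.001 in the rapamycin mice, against 8.898, 8.994 and 9.189 in the PBS mice, a difference of -0.05 (SE 0.10). In both the highest mouse was PBS replicate 3. The regulatory subunit Atp6v1h measured 7.78, 7.90 and 7.79 in the rapamycin mice, against 7.71, 7.93 and 7.67 in the PBS mice, a difference of 0.06 (SE 0.09) with PBS replicate 2 above all rapamycin mice.

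The lysosomal enzymes also lay on both sides of zero, further apart than the pump genes. Of 9 genes 5 were higher and 4 lower with rapamycin, with a median of 0.0021 and a range from -0.15 to 0.22. Without rapamycin replicate 1, 7 were higher and 2 lower with a median of 0.06, and without rapamycin replicate 3, 3 were higher and 6 lower with a median of -0.02. Hexa, a subunit of the enzyme that trims gangliosides, measured 8.70, 8.81 and 9.02 in the rapamycin mice, against 8.73, 8.57 and 8.66 in the PBS mice. Its difference of 0.19 (SE 0.10, 1.14-fold) did not pass the test, and rapamycin replicate 1 lay under PBS replicate 1. Gla, the alpha-galactosidase, was lowest at -0.15 (SE 0.13), with 7.83, 8.06 and 8.30 in the rapamycin mice, against 8.29, 8.06 and 8.29 in the PBS mice.

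The 5 cathepsins, the proteases and peptidases of the lysosome, differed in pattern. Ctsd, the aspartic protease, measured 12.47, 12.47 and 12.53 in the rapamycin mice, against 12.43, 12.45 and 12.58 in the PBS mice, and its difference was 0.0021 with a 95% interval from -0.18 to 0.18. Ctsl, a cysteine protease, was nearly equal in the rapamycin mice at 7.25, 7.23 and 7.22, against 7.42, 6.69 and 6.93 in the PBS mice. Its difference of 0.22 (SE 0.16) had PBS replicates 2 and 3 as the lowest mice and PBS replicate 1 as the highest. Ctsb, another cysteine protease, measured 11.24, 11.69 and 11.84 in the rapamycin mice, against 11.67, 11.62 and 11.84 in the PBS mice, so only rapamycin replicate 1 was low. Its difference of -0.12 (SE 0.15) was 0.05 without that mouse. Ctsz, a carboxypeptidase, measured 10.36, 10.63 and 10.61 in the rapamycin mice, against 10.47, 10.29 and 10.48 in the PBS mice, and rapamycin replicate 1 kept its difference of 0.12 (SE 0.10) from separating the groups. Ctsa, a carboxypeptidase that also protects beta-galactosidase and neuraminidase, differed by -0.0033. Neu1, the sialidase, measured 7.51, 7.34 and 7.41 in the rapamycin mice, against 7.51, 7.46 and 7.42 in the PBS mice, a difference of -0.04 (SE 0.08). The glucuronidase Gusb differed by 0.03.

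The lysosomal membrane proteins and activators were higher in all 5 genes, each by 0.11 or less. The median was 0.08, the range 0.04 to 0.11, and 0 of 5 had an unadjusted p under 0.05. Lamp2, a membrane glycoprotein needed for fusion with autophagosomes, measured 10.05, 10.41 and 10.62 in the rapamycin mice, against 10.30, 10.18 and 10.28 in the PBS mice. The difference was 0.11 (SE 0.14), with both the lowest and the highest mouse in the rapamycin group. Lamp1, an abundant protein of the same kind, measured 10.51, 10.63 and 10.92 in the rapamycin mice, against 10.72, 10.50 and 10.54 in the PBS mice, a difference of 0.10 (SE 0.12). Npc1, the cholesterol exporter, measured 8.97, 9.18 and 9.25 in the rapamycin mice, against 9.09, 8.98 and 9.11 in the PBS mice, a difference of 0.08 (SE 0.10). For this gene too the lowest and the highest mouse were in the rapamycin group. Psap, the precursor of the saposins that present lipids to hydrolases, differed by 0.05, and the calcium channel Mcoln1 by 0.04. The count of 5 higher was 2 without rapamycin replicate 3, with a median of -0.02. It remained 5 without rapamycin replicate 1, with a median of 0.16.

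**Figure D4:**
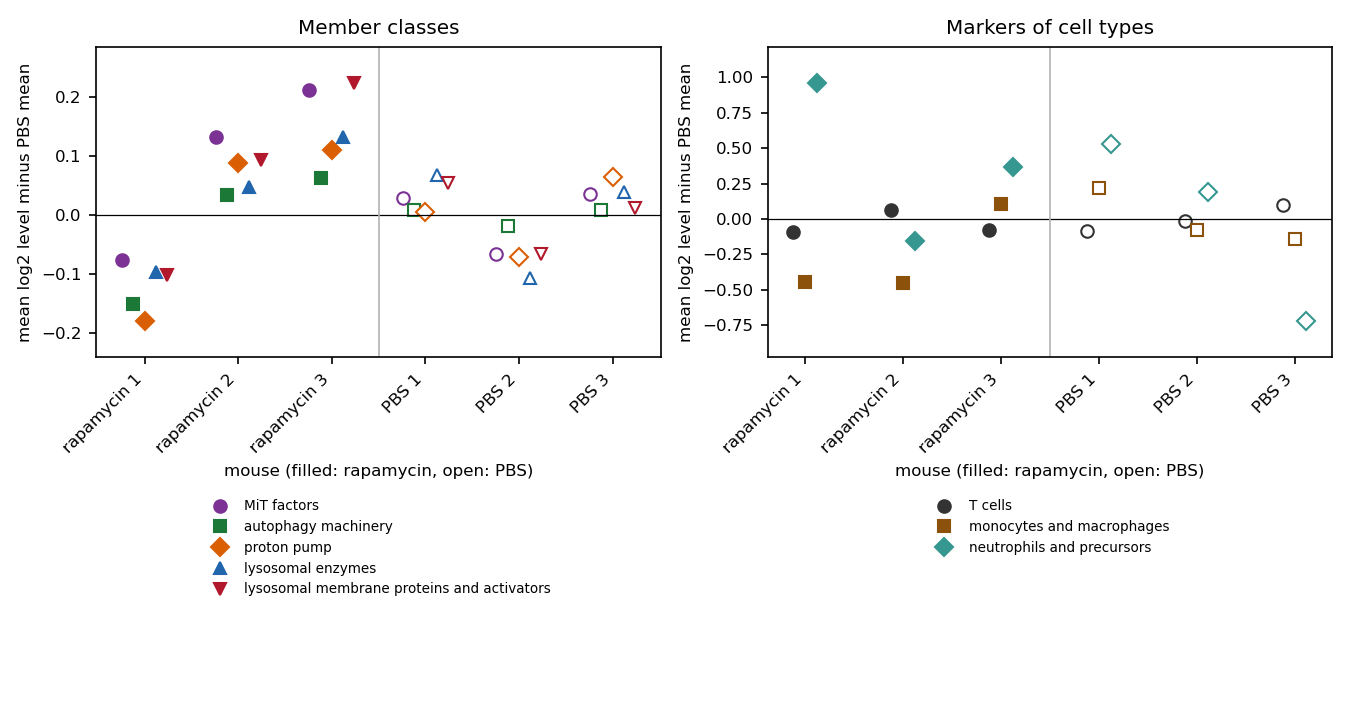
Mean log2 level of each class of the 47 genes (left) and of 3 marker lists (right) in each mouse, minus the mean of the PBS mice, with filled symbols for rapamycin and open symbols for PBS mice. In the left panel all 5 classes are below zero in rapamycin replicate 1 and PBS replicate 2 and above zero in the other 4 mice, and in the right panel the neutrophil mean is highest in rapamycin replicate 1.

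All 5 classes were low in the same 2 mice, of which 1 was in each group. Relative to the PBS mean, the MiT factors lay at -0.08, 0.13 and 0.21 in the rapamycin mice and at 0.03, -0.07 and 0.04 in the PBS mice. The autophagy machinery lay at -0.15, 0.03 and 0.06 in the rapamycin mice and at 0.01, -0.02 and 0.01 in the PBS mice. The proton pump lay at -0.18, 0.09 and 0.11 in the rapamycin mice and at 0.01, -0.07 and 0.06 in the PBS mice. The lysosomal enzymes lay at -0.10, 0.05 and 0.13 in the rapamycin mice and at 0.07, -0.11 and 0.04 in the PBS mice. The lysosomal membrane class lay at -0.10, 0.09 and 0.22 in the rapamycin mice and at 0.05, -0.07 and 0.01 in the PBS mice. In each class the lowest mouse was rapamycin replicate 1 or PBS replicate 2, and rapamycin replicate 3 was the highest. Some monocyte markers, picked out because their values were seen to match, followed the same mice, and others did not. Csf1r, the receptor for the growth factor of monocytes and macrophages, measured 9.05, 9.43 and 9.91 in the rapamycin mice, against 9.52, 9.33 and 9.57 in the PBS mice. Adgre1, which encodes the F4/80 antigen, measured 7.26, 7.67 and 8.49 in the rapamycin mice, against 7.87, 7.46 and 7.81 in the PBS mice. Fcgr1, a high-affinity antibody receptor, measured 7.54, 8.43 and 8.84 in the rapamycin mice, against 8.15, 7.64 and 8.43 in the PBS mice, and the chemokine receptor Ccr2 was also low in rapamycin replicate 1 and PBS replicate 2 and highest in rapamycin replicate 3. Over all 14 measured markers of the list, rapamycin replicate 3 was the highest mouse in 8. The lowest mouse was rapamycin replicate 1 in 5, rapamycin replicate 2 in 4, rapamycin replicate 3 in 2, PBS replicate 2 in 2 and PBS replicate 3 in 1. Spic and Vcam1 were highest in PBS replicate 1 and lowest in rapamycin replicate 3. C1qa and C1qc ran against the pattern, highest in PBS replicate 2 and lowest in rapamycin replicate 2. The part of these cells in the levels of the set was not tested.

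Genes with and without the CLEAR bases in their promoters both had medians near zero, with differences on both sides of it. The 7 genes printed with the 8 bases had differences from -0.15 (Gla) to 0.04 (Mcoln1), with 4 higher, 3 lower and a median of 0.0021. The 30 without them had a median of 0.0025, with 15 higher and 15 lower. With the shorter core, 12 genes had a median of 0.01 and 25 without it a median of -0.0038. Leaving out rapamycin replicate 1 gave 5 of the 7 genes with the 8 bases higher, with a median of 0.07, and 25 of the 30 without them, with a median of 0.10. Leaving out rapamycin replicate 3, the medians were -0.05 and -0.04. Mcoln1 measured 8.57, 8.72 and 8.65 in the rapamycin mice, against 8.60, 8.59 and 8.65 in the PBS mice. Atg3 measured 8.38, 8.61 and 8.65 in the rapamycin mice, against 8.73, 8.57 and 8.59 in the PBS mice. Among the genes with the 8 bases the groups overlapped in every case, and among all 12 with the core they did not for Atg7 alone. Whether the 2 sets of promoters differ in response was not tested.

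**Figure D5:**
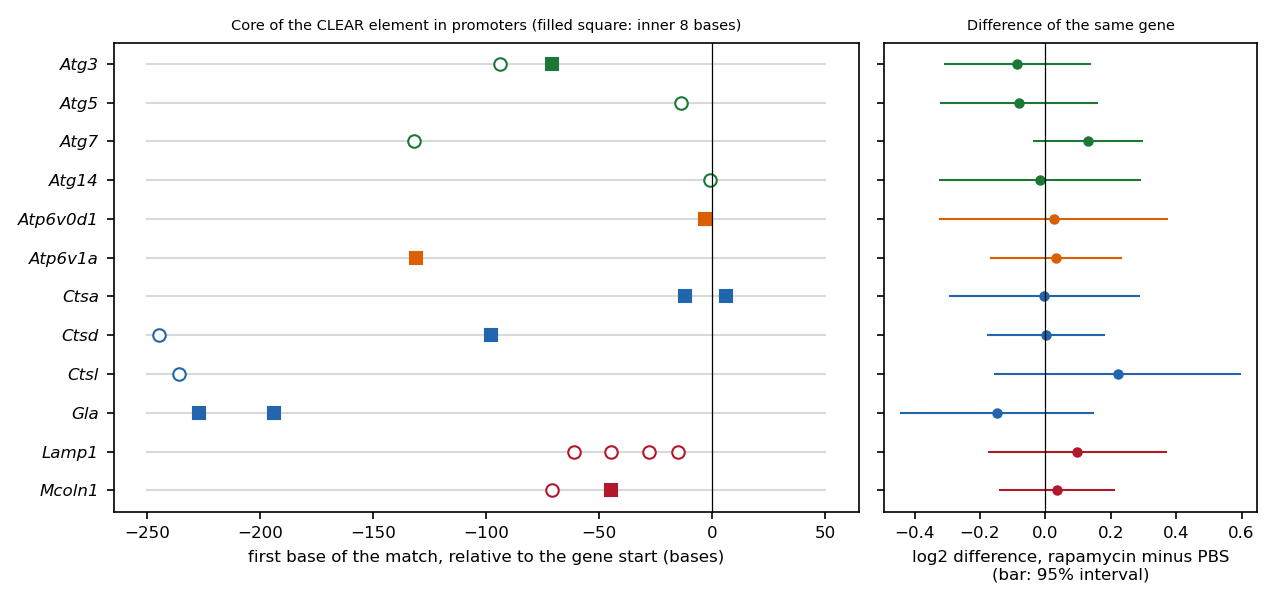
Left, position of each match of the core in the promoters of 12 genes, in bases from the gene start (filled squares, inner 8 bases of the CLEAR element; open circles, core alone). Right, the log2 difference of the same gene, rapamycin minus PBS, with its 95% interval; the 12 intervals all include zero.

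Further genes of the pathway were read from 5 lists of 130 genes, of which 121 were measured. Of these 0 passed the test, 60 were higher and 61 lower, and 8 had an unadjusted p under 0.05, of which 1 was higher and 7 lower. Over all genes the share at that p was 4.67%, with 319 higher and 613 lower. All 3 rapamycin mice lay above the PBS mice for 3 genes and below them for 8, where the shares of all genes were 3.14% and 6.28%. With rapamycin replicate 1 left out, 81 of the 121 were higher and 40 lower. That mouse was singled out for its low levels in the 47 genes of the same pathway. Of all genes 44.9% were higher under this omission, and 52.3% of the upper 50% by mean level, where 110 of the 121 lay. Then 25 of the 121 lay wholly above and 13 wholly below the PBS mice. The shares were 9.89% and 14.2% of all genes, and 13.6% each of the upper 50%. With rapamycin replicate 3 left out, 37 of the 121 were higher and 84 lower.

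In the wider autophagy list (34 measured, median -0.01), Trp53inp1 and Trp53inp2, which encode related proteins that bind LC3 family members, had the smallest p values. Trp53inp1, a p53 target, measured 9.34, 9.30 and 9.26 in the rapamycin mice, against 9.89, 9.81 and 9.74 in the PBS mice, and did not overlap. Its difference was -0.51 (SE 0.08, adjusted p = 0.408 in limma's test). Trp53inp2 measured 7.01, 6.95 and 7.16 in the rapamycin mice, against 7.33, 7.33 and 7.37 in the PBS mice, a difference of -0.30 (SE 0.08, adjusted p = 0.951 in limma's test). In the other direction Bnip3, a mitophagy receptor induced by hypoxia, measured 6.45, 6.74 and 7.50 in the rapamycin mice, against 6.20, 6.55 and 6.37 in the PBS mice, so rapamycin replicate 3 carried most of its 0.52. Bnip3 has 2 probe sets, and with probe sets averaged the highest difference of any gene in this list was 0.28. Fundc1, another mitophagy receptor, differed by 0.09.

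Other pump subunits leaned higher, with 11 of 14 above zero and a median of 0.07. Without those in the lower 50% of genes by mean level, 8 of 10 lay above zero, with a median of 0.045. Atp6v0a1, one of the alternative large V0 subunits, measured 7.44, 7.95 and 7.65 in the rapamycin mice, against 7.51, 6.88 and 7.37 in the PBS mice, a difference of 0.43 (SE 0.18) with overlapping groups. Atp6v1c2 differed by 0.16 without overlap, at 5.40 ± 0.06 in the rapamycin mice and 5.24 ± 0.06 in the PBS mice. Its level lay in the lower 50% of genes. In all, 3 of the 14 had every rapamycin mouse above every PBS mouse, against 3.14% of all genes. Atp6v0e2 and Atp6v1g2 each differed by -0.03.

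Among 32 further lysosomal enzymes (13 higher, 19 lower, median -0.03), Lgmn and Acp5 had the smallest p values. Without rapamycin replicate 1 the 32 counted 24 higher and 8 lower, with a median of 0.08. Without rapamycin replicate 3 they counted 6 higher and 26 lower, with a median of -0.09. Lgmn, the asparagine-specific protease legumain, measured 7.20, 7.01 and 7.69 in the rapamycin mice, against 8.05, 7.92 and 7.77 in the PBS mice. Its difference was -0.62 (SE 0.16, 1.53-fold lower, adjusted p = 0.911 in limma's test). Acp5, an acid phosphatase of osteoclasts and macrophages, measured 9.60, 9.72 and 9.89 in the rapamycin mice, against 10.16, 9.94 and 10.14 in the PBS mice, a difference of -0.34 (SE 0.10). Neither overlapped between the groups. Macrophages make both proteins. Spic, the factor of red pulp macrophages, had the lowest difference of the macrophage marker list, -1.34, and was chosen once its values were known. It measured 5.77, 5.84 and 5.50 in the rapamycin mice, against 7.51, 6.70 and 6.93 in the PBS mice. Lyz2, of the same list, went the other way by 0.29, with every rapamycin mouse above every PBS mouse. Of 14 measured monocyte and macrophage markers 9 were lower and 5 higher, and their part in the levels of Lgmn and Acp5 was not tested. Aga and Arsa, a glycosylasparaginase and a sulfatase, differed by 0.28 and 0.17.

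Of 21 further membrane and lumen proteins 9 were higher and 12 lower, with a median of -0.04. The counts were 14 higher and 7 lower (median 0.03) without rapamycin replicate 1. They were 6 higher and 15 lower (median -0.11) without rapamycin replicate 3. The peptide transporter Abcb9 differed by -0.26 and the mannose 6-phosphate receptor Igf2r by -0.26. Sort1, a sorting receptor, measured 7.50, 7.32 and 8.41 in the rapamycin mice, against 7.88, 7.18 and 7.09 in the PBS mice, and rapamycin replicate 3 carried most of its 0.36. Scarb2, which carries glucocerebrosidase to the lysosome, differed by 0.13.

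The genes that control the MiT factors (20 measured, 11 higher, 9 lower, median 0.00050) held Lamtor1, the anchor of the Ragulator complex that brings mTORC1 to the lysosome. It measured 8.51, 8.61 and 8.66 in the rapamycin mice, against 8.90, 8.79 and 8.75 in the PBS mice, without overlap. The difference was -0.22 (SE 0.08, adjusted p = 0.9998 by limma). Flcn, a regulator of the Rag GTPases needed for mTORC1 to act on TFEB, differed by -0.11, and its partner Fnip1 by 0.12. Tfec, the MiT family member found mainly in macrophages, measured 8.41, 8.79 and 9.02 in the rapamycin mice, against 8.83, 7.95 and 8.15 in the PBS mice. Its difference was 0.43 (SE 0.23), and PBS replicate 1 lay among the rapamycin mice.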

How the data were processed

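RNA of CD3-positive spleen cells from 6 mice was read on 1 array per mouse. The deposited values are log2 expression that the authors made with Affymetrix Expression Console and RMA, per the submitters' processing notes; no versions are named there. RMA subtracts background, gives all arrays 1 distribution of intensities and summarises probe sets, so a shift shared by most genes is removed and differences near background are compressed. Of 35556 probe sets, 21789 named exactly 1 gene in the platform's probe table, 1621 named several and 12146 none. A RefSeq table of GRCm38.p6 held the identifiers of 21698 and updated 0 symbols. The probe set with the highest mean over 6 arrays stood for each of 19938 genes. Array medians lay between 6.03 and 6.17, and the number of arrays limits the precision, with a median SE of 0.0955 over all genes. The groups were compared with limma 3.58.1 under R 4.3.3 (lmFit, eBayes, group as the only term, two-sided, Benjamini-Hochberg over all genes, call at an adjusted p under 0.05). The test was checked on simulated data with planted differences of 1 log2 unit. These are larger than any difference of the 47 genes, so the check does not cover changes of their size. Figures were drawn with matplotlib 3.10.9 in Python 3.11.15.

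The genes, their classes and all lists were chosen with earlier results of these data known. Values by mouse were planned for members past the threshold, the MiT factors, 8 textbook members and, in each other class, the 3 members with the smallest p in each direction. Further lists are named by their 2 smallest p in either direction. Other members are given by their difference. Becn1, Atg14, Atp6v0d1, Atg3, 5 monocyte and macrophage markers (Spic, Csf1r, Adgre1, Fcgr1 and Ccr2) and the second probe set of Mitf are exceptions, given by mouse or group and chosen once their values were known. The upper 50% of genes as a background was also chosen after the data were seen. Promoter sequences are RefSeq's, and 10 of the 47 genes had no entry that matched. In 352 of 999 genes with several probe sets these differed in direction. Alternatives were each mouse left out, the replicate number as a block, no genes of the lower 50%, array weights, averaged probe sets, centred arrays and a trended robust prior. Deviations of same-numbered mice correlated at 0.0861, -0.192 and 0.195 for replicates 1, 2 and 3. Against a limit of 0.1 set for pairing, replicate 3 lay above it and replicates 1 and 2 below. With so few mice these values cannot show whether the mice were paired. The sample titles give no pairing, so the numbers were not taken as pairs in the main test.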

Additional observations from a re-analysis of the deposited data

How the results depend on the processing

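No alternative gave any of the 47 genes an adjusted p under 0.05. The class medians did change sign when a single mouse was left out, in 4 of the 5 classes. Over the 6 omissions they ran for the autophagy machinery from -0.065 to 0.029, for the proton pump from -0.062 to 0.086, for the enzymes from -0.019 to 0.062 and for the membrane class from -0.019 to 0.16, while the MiT factors stayed above zero, from 0.0011 to 0.17. Their median was -0.0092 where the lower 50% of genes, and Mitf with it, was left out. Over all genes the count of calls was 7 without rapamycin replicate 1 and 0 without any other single mouse, against 1 with all 6 mice. With the replicate block it was 0, and 0 of the 47 passed. The other 5 alternatives left it at 1. Among single genes of the set, 50 values changed sign under an alternative and 511 kept it; of the named pathway genes 2 changed and 236 kept it. Array weights, which gave rapamycin replicate 1 the lowest weight, 0.471, turned Atg14 to 0.063, Map1lc3b to 0.0053, Gabarap to 0.039, Atp6ap1 to 0.075 and Ctsa to 0.053. Centring the arrays turned Gabarap to 0.0067 and Ctsa to 0.0073. Averaging probe sets turned Gabarapl2 to -0.00014. Differences over the 6 omissions ran for Tfeb from -0.16 to 0.025, Ulk1 from -0.065 to 0.062, Ulk2 from -0.13 to 0.033, Atg5 from -0.17 to 0.019, Atg9a from -0.054 to 0.12, Atg12 from -0.069 to 0.092, Atg13 from -0.12 to 0.037 and Atg14 from -0.14 to 0.14. Further, they ran for Atg16l1 from -0.050 to 0.0060, Map1lc3a from -0.14 to 0.020, Map1lc3b from -0.18 to 0.089, Gabarap from -0.059 to 0.089, Gabarapl2 from -0.061 to 0.15, Uvrag from -0.12 to 0.0073, Atp6v0d1 from -0.083 to 0.19 and Atp6v1a from -0.031 to 0.086. The ranges also crossed zero for Atp6v1b2 from -0.018 to 0.21, Atp6v1d from -0.11 to 0.035, Atp6ap1 from -0.13 to 0.15, Ctsa from -0.092 to 0.12, Ctsb from -0.24 to 0.053, Ctsd from -0.025 to 0.050, Gusb from -0.0084 to 0.062 and Lamp1 from -0.019 to 0.19. The last were Lamp2 from -0.023 to 0.26, Mcoln1 from -0.0012 to 0.073, Psap from -0.030 to 0.12, Atp6v0e2 from -0.13 to 0.029 and Atp6v1g2 from -0.075 to 0.020. The cause of these turns was not tested. With the core in place of the 8 bases, the share of the 37 genes with a match in a promoter was 32.4%, against 18.9%. With 3 arrays a group, a median SE of 0.10 over the set limits what can be seen, and a protein, its phosphorylation or autophagic flux was not measured.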
